A study of Mus musculus with 4 samples.

Results

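A group of 10 genes of the piRNA pathway was examined in ATAC-seq peak lists from pachytene spermatocytes of mouse testis: the PIWI genes Piwil1 and Piwil2, and Mael, Ddx4, Mov10l1, Pld6, Henmt1, Asz1, Fkbp6 and Gtsf1. They are 10 of the 21887 protein-coding genes in the gene table, and all 10 were matched by symbol. The ATAC-seq intervals taken are those that lie inside a gene or within 10 kb of either end. The labels describe 4 libraries, 2 of genotype Znhit1_KO and 2 of genotype CTRL, all with the tag P35, which the labels do not explain. ZNHIT1 is a subunit of the SRCAP complex, which places the histone variant H2A.Z in chromatin, and the study asked how it affects accessibility at this stage. How the knockout was made, in which cells it acts and what alleles the controls carry are not stated by the labels. A single peak list per genotype was analysed, the one recorded for each first replicate, so no difference between the genotypes has a replicate check and no test was run.

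PIWI proteins are Argonaute relatives of the germline that bind piRNAs, small RNAs that silence transposons and, at the pachytene stage, are made in large amounts from long single-stranded precursors. Precursors are handed over by helicases, cut on the outer surface of mitochondria, loaded into PIWI proteins, trimmed and methylated at the 3' end. Many of the proteins gather in germ granules, and loss of most of them in mice arrests spermatogenesis.

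Windows at the annotated starts of 4 genes are shown. All 4 hold the motif CACGTG, which was chosen after the sequences had been read. The windows of Henmt1, Asz1 and Gtsf1, not shown, do not hold it. Each window runs from 250 bases before to 50 bases after a RefSeq start (GRCm38.p6), 5' to 3' along the transcribed strand. Capitals mark the E-box CACGTG, a site of basic helix-loop-helix factors, and the core GGCAGTT bound by A-MYB, the transcription factor (gene Mybl1) that activates piRNA pathway genes at pachytene.
Piwil1, chr5:128735996-128736295, plus strand: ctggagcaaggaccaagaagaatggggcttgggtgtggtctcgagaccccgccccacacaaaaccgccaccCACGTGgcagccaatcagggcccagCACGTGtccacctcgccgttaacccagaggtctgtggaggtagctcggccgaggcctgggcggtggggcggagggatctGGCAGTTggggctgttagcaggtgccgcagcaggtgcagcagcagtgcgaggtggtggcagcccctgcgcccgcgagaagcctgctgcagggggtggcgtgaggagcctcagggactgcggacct
Mael, chr1:166238695-166238994, minus strand: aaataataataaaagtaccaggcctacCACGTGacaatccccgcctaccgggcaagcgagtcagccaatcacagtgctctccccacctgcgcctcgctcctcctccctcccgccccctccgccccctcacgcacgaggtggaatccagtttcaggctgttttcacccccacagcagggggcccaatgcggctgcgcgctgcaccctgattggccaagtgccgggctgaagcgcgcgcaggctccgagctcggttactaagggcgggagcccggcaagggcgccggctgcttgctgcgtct
Ddx4, chr13:112652261-112652560, minus strand: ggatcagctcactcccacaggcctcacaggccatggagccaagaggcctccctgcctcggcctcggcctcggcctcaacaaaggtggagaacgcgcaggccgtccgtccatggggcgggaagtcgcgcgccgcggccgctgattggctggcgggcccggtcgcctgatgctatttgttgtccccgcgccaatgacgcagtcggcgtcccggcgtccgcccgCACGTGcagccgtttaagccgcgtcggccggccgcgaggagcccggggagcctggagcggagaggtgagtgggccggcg
Fkbp6, chr5:135349995-135350294, minus strand: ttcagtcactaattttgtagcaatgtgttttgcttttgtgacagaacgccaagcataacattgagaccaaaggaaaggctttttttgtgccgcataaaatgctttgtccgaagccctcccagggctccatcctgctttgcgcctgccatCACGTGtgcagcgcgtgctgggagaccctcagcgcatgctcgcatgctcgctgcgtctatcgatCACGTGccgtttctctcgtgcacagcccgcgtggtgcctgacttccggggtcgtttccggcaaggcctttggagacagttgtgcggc

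All 10 genes had at least 1 site at which a knockout and a control interval overlapped, and at 8 of the 9 genes with a RefSeq start that site covered the start. At Fkbp6 the only such site lay outside the gene, within the neighbouring gene Trim50. Among all 21887 protein-coding genes, 38.0% had overlapping intervals in the same kind of window. The windows of the 10 genes are longer, with a median of 67.4 kb against 37.2 kb for all protein-coding genes, so this share is not length-matched. The 10 genes were also chosen with earlier results of these data known, so their counts beside the shares here are a description. The start window was touched in both lists at 28.3% of the 17492 protein-coding genes that have one. Fkbp6 was the gene whose start window was touched in the control list alone, a state found at 3.51% of those genes, or at 3.24% when the control interval must also overlap no knockout interval, as here.

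**Figure D1:**
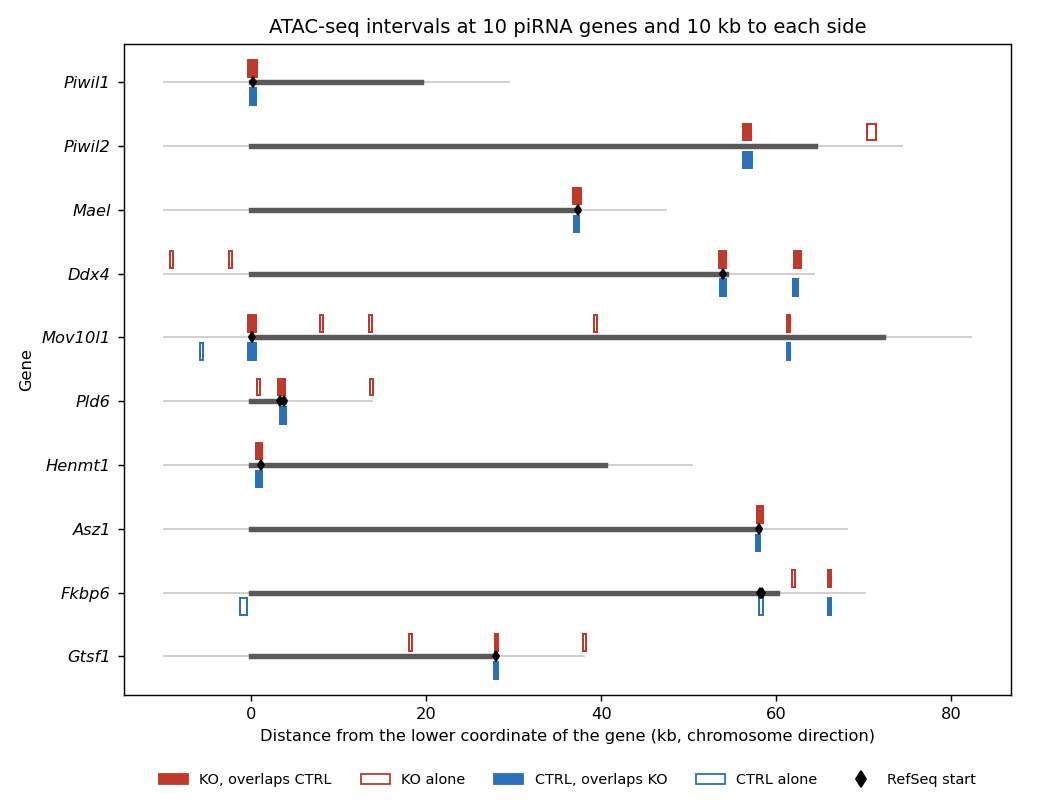
Each row is a gene (dark bar) with 10 kb to each side (thin line), in kb from its lower coordinate in chromosome direction; knockout intervals are above the line and control intervals below, filled where they overlap the other list, and diamonds mark RefSeq starts. The narrowest intervals are drawn slightly widened. Filled pairs stand at a diamond in 8 genes, and the open boxes are mostly knockout intervals away from starts.

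The knockout list held 23 intervals in these windows and the control list 15. Per 100 kb this was 3.6 intervals in the knockout and 2.35 in the control, against 1.55 and 1.21 over the windows of all protein-coding genes. Of the 23 knockout intervals 12 (52.2%) overlapped a control interval, and of the 15 control intervals 12 (80.0%) overlapped a knockout one. Over the whole lists 32.4% of 21004 knockout intervals and 44.4% of 15376 control intervals did. The knockout list is the longer, and neither gives the read depth behind it. In the windows of 23 markers of other cell types the lists held 24 knockout and 10 control intervals. In those of 6 pachytene markers, without Piwil1, they held 12 and 7. Both sums are gene by gene, so an interval near 2 markers of a set counts 2 times. The part of other cell types in the numbers at the 10 genes was not tested. Away from overlapping sites the knockout list had 11 intervals in 6 genes and the control list 3 in 2 genes.

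Piwil1 encodes MIWI, the PIWI protein of pachytene spermatocytes and round spermatids. It had 1 interval in each list, both over its start and with no other in the window. The knockout interval was 1095 bp wide and stood on 3 lines of the list (chromosome 5, 128735649 to 128736743, mm10). The control interval was 719 bp wide, stood on 2 lines and lay wholly inside the knockout one (128735928 to 128736646). The knockout interval reached 279 bp further upstream and 97 bp further downstream, and 96.1% of all knockout intervals were narrower, against 79.2% of control intervals for the control one. Both intervals covered all 300 bases of the start window. That window holds 2 E-boxes, 179 and 154 bases before the start, and an A-MYB core 75 bases before it, all within the interval of either genotype.

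Piwil2 encodes MILI, the PIWI protein present from fetal germ cells into spermatids. Its overlapping site lay inside the gene on chromosome 14, from 70428645 to 70429587 in the knockout and from 70428727 to 70429688 in the control. The widths were 943 bp in knockout cells and 962 bp in control cells, each interval was listed 3 times, and they shared 861 bp. The site was therefore nearly the same in both lists. A second knockout interval of 1013 bp, also listed 3 times, lay 5938 bp beyond the gene (70442836 to 70443848) and overlapped Polr3d, an RNA polymerase III subunit gene, and the microRNA gene Mir320. The nearest control interval was 13147 bp away. It was the only interval in the knockout list alone, of the 11, that stood on more than 1 line.

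Gtsf1 encodes a small zinc finger protein that binds PIWI proteins and speeds their target cleavage. Its start interval was 328 bp in knockout cells (chromosome 15, 103430292 to 103430619) and 454 bp in control cells (103430167 to 103430620), each listed once. The upstream edges were 1 bp apart, and the knockout interval ended 125 bp earlier on the downstream side. This was the one start site of the 8 in both lists that was narrower in the knockout. The knockout list alone had 2 more intervals, of 347 bp inside the gene and of 320 bp at 9984 bp from it, inside Gtsf2, a paralogue. Both genes also overlap the long non-coding RNA gene Gm52195, so the intervals cannot be assigned to one of them.

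Mov10l1 encodes the RNA helicase that binds piRNA precursors and feeds them into processing. Its start interval was 930 bp in knockout cells (chromosome 15, 88982509 to 88983438) and 893 bp in control cells (88982519 to 88983411), so that the edges differed by 10 bp upstream and 27 bp downstream. The interval also covers an end of the neighbouring gene Mlc1. Mov10l1, at 72.3 kb the longest of the 10 genes, had 5 intervals in the knockout, the most of the 10, and 3 in the control, as many as Fkbp6. A second overlapping site, 61185 bp downstream of the start in the knockout, measured 346 bp in knockout cells and 277 bp in control cells. The knockout list alone had 3 intervals inside the gene, of 249, 354 and 335 bp, each listed once. The control list alone had 1, of 356 bp, within Mlc1.

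Ddx4 encodes the DEAD-box helicase also called MVH or VASA, a germ granule component used to mark germ cells. At its start the knockout interval was 772 bp wide and listed once (chromosome 13, 112651800 to 112652571). The control interval was 644 bp wide, listed 2 times and lay inside it (112651904 to 112652547). A second overlapping site lay upstream of Ddx4 at the start of Slc38a9, an amino acid transporter gene, with 790 bp in knockout cells and 496 bp in control cells. Beyond the 3' end the knockout list alone had intervals of 309 and 219 bp, at 9015 and 2327 bp from the gene.

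Pld6 encodes the mitochondrial endonuclease that cuts piRNA precursors, the counterpart of fly Zucchini. Both lists had an interval that touched both of its RefSeq start windows, 815 bp in knockout cells (chromosome 11, 59786975 to 59787789) and 615 bp in control cells (59787188 to 59787802). The upstream edges differed by 13 bp, and the knockout interval reached 213 bp further downstream. Other intervals were found in the knockout list alone, one of 236 bp inside this short gene (3.77 kb) and one of 177 bp within Flcn, 9865 bp away.

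Asz1 encodes GASZ, a mitochondrial scaffold of the piRNA machinery. At its start the knockout interval was 598 bp wide (chromosome 6, 18108809 to 18109406) and the control interval 487 bp (18108683 to 18109169), each listed once. They shared 361 bp, which is 60.4% of the knockout and 74.1% of the control interval. The knockout interval was shifted upstream, reaching 237 bp further on that side and 126 bp less far downstream. No other interval lay in its window.

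Henmt1 encodes the methyltransferase that caps piRNA 3' ends with a 2'-O-methyl group. Its only intervals were at the start, 711 bp in knockout cells (chromosome 3, 108939957 to 108940667) and 663 bp in control cells (108939969 to 108940631), each listed 2 times. The centres lay 245 bp upstream of the RefSeq start in the knockout and 257 bp upstream in the control. Mael encodes Maelstrom, a germ granule protein needed for transposon silencing and for pachytene piRNA output. Its only intervals were also at the start, 884 bp in knockout cells (chromosome 1, 166238161 to 166239044) and 630 bp in control cells (166238271 to 166238900), each listed 2 times. The control interval lay inside the knockout one, which reached 144 bp further upstream. The E-box of Mael, 223 bases before the start, fell within that added stretch and thus inside the knockout interval and outside the control one.

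Fkbp6 encodes a co-chaperone that works with HSP90 in loading PIWI proteins. Unlike the other 8 genes with a RefSeq start, it had no knockout interval there. The control interval there was 410 bp wide and listed once (chromosome 5, 135349766 to 135350175), and the nearest knockout interval was 3416 bp away, within Trim50. A width of 410 bp is below the control median of 427 bp for the whole list and of 685 bp at coding starts. The E-boxes 101 and 37 bases before the most upstream of its 2 RefSeq starts were both inside it. Beyond the 3' end, 504 bp from the gene, the control list alone also had an interval of 772 bp (135290429 to 135291200), listed once. The knockout list alone had one of 245 bp in Trim50. The one site of the Fkbp6 window in both lists lay within Trim50 too, 237 bp wide in the knockout and 234 bp in control cells, with edges 2 and 5 bp apart. An interval that missed the caller's threshold and a closed site give the same empty entry here.

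**Figure D2:**
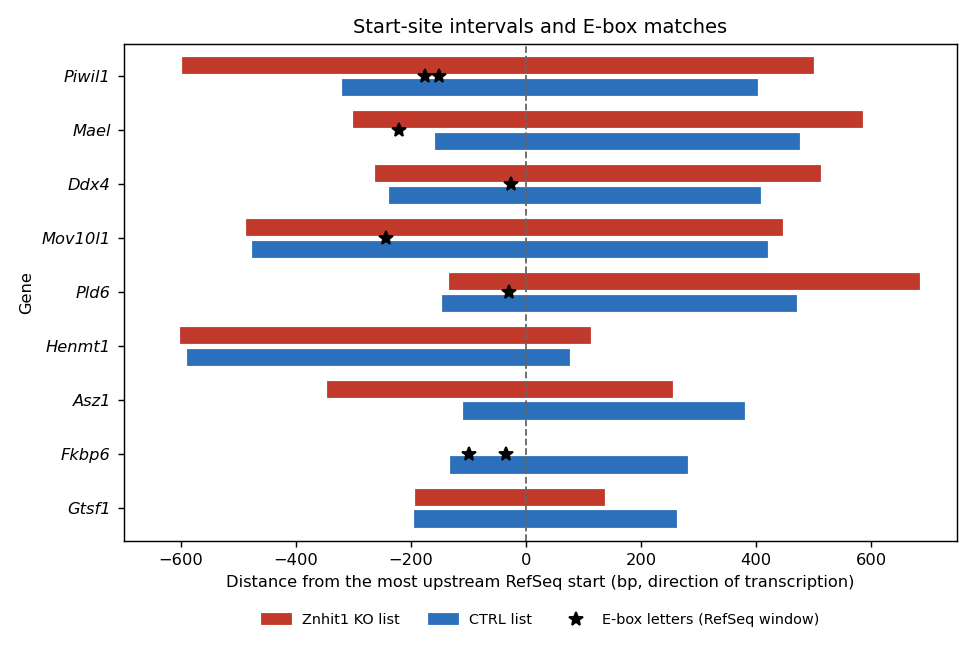
Start-site intervals of the 9 genes with a RefSeq start, in bp from the most upstream start along the direction of transcription, with the knockout bar above the control bar; stars mark E-boxes. Bars span the start in both genotypes at 8 genes, Fkbp6 has the control bar alone, and the Mael star lies within the knockout bar alone.

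At the overlapping start sites the knockout interval was wider at 7 of 8 genes. Over all 4144 sites at coding starts where 1 knockout interval met 1 control interval, 53.2% were wider in the knockout (52.6% over all 6296 such sites in the genome). Expressed as log2 of knockout width over control width, the median at coding starts was 0.03 (quartiles -0.27 and 0.37). At the 8 genes the log2 width ratio was 0.61 for Piwil1, 0.49 for Mael and 0.41 for Pld6. It was 0.30 for Asz1, 0.26 for Ddx4, 0.10 for Henmt1 and 0.06 for Mov10l1, and -0.47 for Gtsf1, with a median of 0.28. Piwil1, Mael and Pld6 thus lay above the upper quartile of all such sites and Gtsf1 below the lower one. With the Piwil2 site, whose log2 ratio was -0.03, the median over 9 sites was 0.26. An interval's width also depends on read depth and enrichment, which the lists do not give, so the part of depth in these ratios was not tested.

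**Figure D3:**
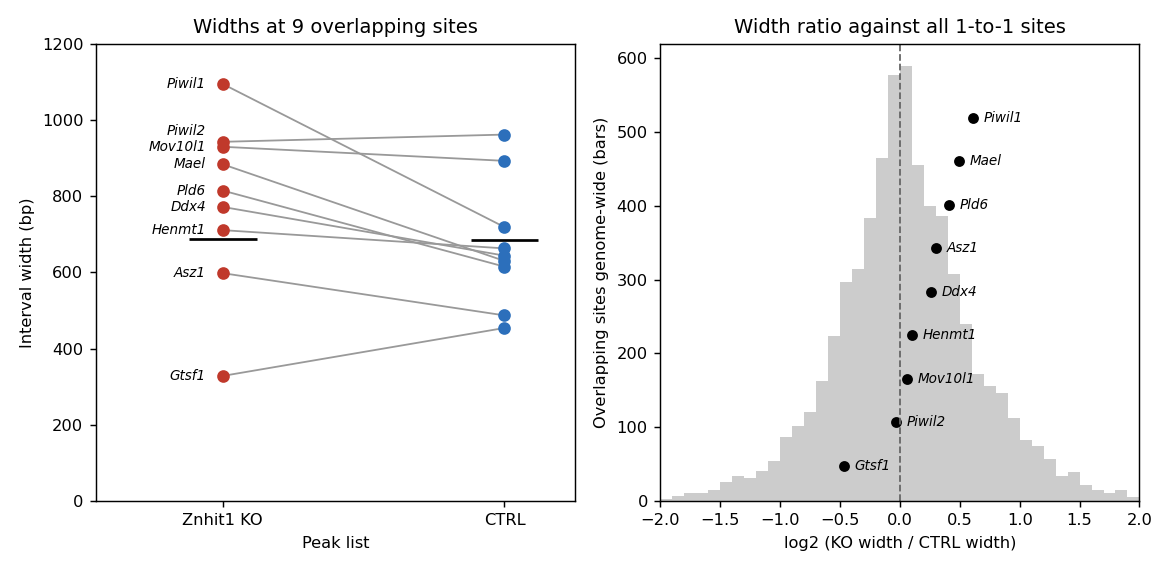
Left, interval width in bp at the 8 start sites and the Piwil2 site in the knockout list and the control list, with lines joining one gene and black bars at the median of all intervals at coding starts (689 bp in knockout cells, 685 bp in control cells). Right, log2 width ratio of the same 9 sites (points, height without meaning) over all 6296 sites where 1 interval met 1 interval (bars); 7 points lie above 0.

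Intervals standing on several lines were about as frequent as at other starts. Of the start intervals 5 of 8 in the knockout and 6 of 9 in the control were listed at least 2 times, against 62.5% of 5909 knockout and 68.9% of 5027 control intervals at coding starts. Median widths of the overlapping intervals were 781 bp for the 12 from the knockout and 622.5 bp for the 12 from the control. Intervals without a counterpart were narrower, with medians of 309 bp for the 11 from the knockout and 410 bp for the 3 from the control. Of those 11 knockout intervals 5 lay inside one of the 10 genes and 6 in the flanks. Close to the 10 kb limit, the knockout intervals 9984 bp from Gtsf1 and 9865 bp from Pld6 were counted, and the nearest one left out lay 15450 bp from Gtsf1.

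E-boxes were found in the start windows of 6 of the 9 genes: Piwil1, Mael, Ddx4, Mov10l1, Pld6 and Fkbp6. Among all 17492 protein-coding genes with such windows 8.91% had one. Counted by window, 7 of the 11 windows had one, against 7.84% of all 21263 and 12.2% of the 5618 with an interval in both lists. The 2 windows of Fkbp6 hold the same E-boxes and were touched in the control list alone. CACGTG reads the same on both strands. Piwil1 and Fkbp6 had 2 each. In Ddx4 the E-box lay 29 bases before the start, in Pld6 33 and in Mov10l1 246, and at these 3 genes it was inside the intervals of both genotypes. Henmt1, Asz1 and Gtsf1 had none in this window. The motif was chosen after these sequences had been read, so the count is a description.

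Other motifs were searched on both strands in the same windows, by the exact letters given, so sites with other letters were not counted. The A-MYB core (GGCAGTT or AACTGCC) was found in Piwil1 alone, 1 of 9 genes against 4.55% of all genes. The CCAAT box (CCAAT or ATTGG) was found in 5 of 9, against 42.3%. The cAMP response element TGACGTCA was found in none, against 2.54%, and the E2F site (TTCCCGCC or GGCGGGAA) in Ddx4 alone, against 3.28%. No searched motif overlapped an E-box. The start windows held 13 to 38 CpG dinucleotides, fewest in Gtsf1 and most in Ddx4, with a median of 21. The median was 13 over all 21263 protein-coding windows and 25 over those with an interval in both lists.

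Of 23 other piRNA pathway genes, 16 had overlapping intervals of both lists in the 10 kb window, against 38.0% of all protein-coding genes. Another 3 (Tdrd5, Tdrd6 and Spocd1) had intervals of both lists that did not overlap, and 4 had a control interval alone. The 16 include Gtsf2, whose control interval is that of the Gtsf1 start, and without it the count was 15 of 22. Windows with intervals of both lists and no overlap made up 8.12% of all protein-coding genes. The 4 with a control interval alone were Piwil4, the nuclear PIWI protein MIWI2 of fetal germ cells, Gtsf1l, Dnmt3l and Morc1. Windows with a control interval alone made up 5.85% of all protein-coding genes. Of the 15 with a RefSeq start, 8 were touched there in both lists, 2 by knockout intervals only, 1 by control intervals only and 4 (Piwil4, Gtsf1l, Gtsf2 and Dnmt3l) by neither. Over all coding genes with a start window, 28.3% were touched in both lists and 8.67% in the knockout list only. A further 3.51% were touched in the control list only and 59.6% in neither. The 8 included the Tudor domain genes Tdrd7, Tdrd9, Tdrd12 and Tdrkh, the nuclease-like gene Exd1 and Btbd18, a regulator of pachytene piRNA precursors. Tdrd1 had a knockout start interval of 396 bp and Tdrd5 a control one of 572 bp, neither overlapped by the other list. The knockout start interval of Tcfl5, 1421 bp and listed 5 times, did overlap a control interval that stopped short of the start window. At the 8 starts in both lists the knockout interval was wider at 3 genes and narrower at 5, with log2 ratios between -0.39 and 0.88 and a median of -0.09. Over all sites at coding starts where 1 interval met 1 interval, 53.2% were wider in the knockout. E-boxes were found in the windows of 4 of the 15 genes, Tdrd1, Tdrd9, Stk31 and Dnmt3l, against 8.91% of all protein-coding genes with such windows.

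**Figure D4:**
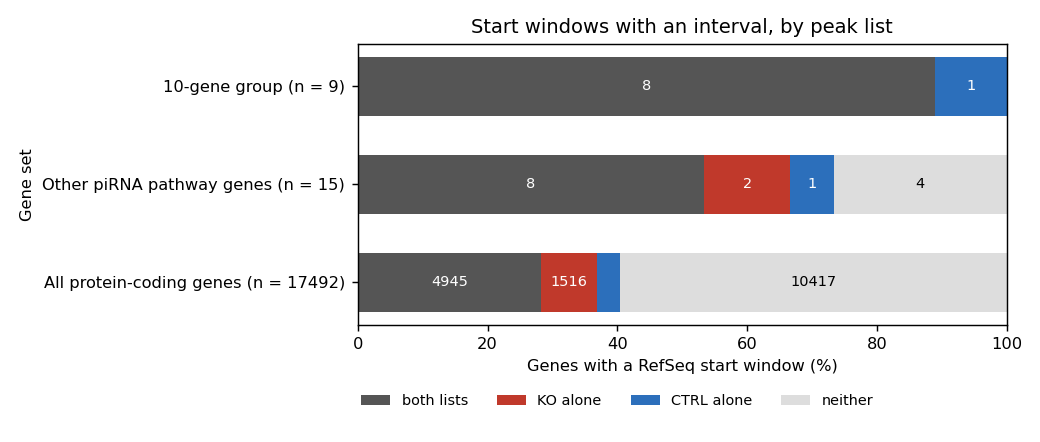
Share of genes with a RefSeq start window touched by intervals of both lists, the knockout list alone, the control list alone or neither (percent, with gene numbers in the bars), for the 10-gene group, 15 other piRNA pathway genes and 17492 protein-coding genes. The 9 genes of the group are 8 in both lists and 1 in the control alone.

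Marker genes were checked against the labelled cell type. Of 6 pachytene markers with a RefSeq start 5 were touched there in both lists, against 28.3% of all coding genes, and Ldhc in the control alone. The 5 include Piwil1 itself, and without it the count was 4 of 5, among them Sycp1 and Sycp3. Of 14 markers of other cell types with a RefSeq start, 13 were touched in neither list, against 59.6% of all coding genes. They were 2 spermatogonial, 2 Sertoli cell, 5 spermatid and 4 of the 5 markers of other somatic and immune cells, the fifth being Acta2, touched in the knockout list alone (313 bp).

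The wider 10 kb windows gave a different picture for these other cell types. Of their 23 markers, 8 had knockout intervals alone, against 13.9% of all protein-coding genes, and 2 had control intervals alone, Dmrt1 and Cyp11a1, against 5.85%. These shares, and those that follow, are not matched for gene length. The 8 were Acta2, Myh11, Pecam1 and Ptprc of somatic and immune cells, Prm2 and Tnp2 of spermatids, Sall4 of spermatogonia and Sox9 of Sertoli cells. Prm2 and Tnp2, both on chromosome 16, had 1 knockout interval each, and whether it is the same one was not checked. Another 2, Amh and Cd68, had overlapping intervals of both lists, against 38.0% of all protein-coding genes. A further 2, Gfra1 and Zbtb16, had intervals of both lists without overlap, against 8.12%. The other 9, among them Kit, Wt1, Star, Insl3 and Prm1, had none, as did 7475 of all 21887 protein-coding genes. Summed gene by gene, the 23 windows held 24 knockout and 10 control intervals. The windows of 6 pachytene markers, without Piwil1, held 12 knockout and 7 control intervals.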

How the data were processed

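ATAC-seq libraries were made from pachytene nuclei cut with Tn5, and each had more than 30000000 reads, per the labels' protocols. Tools named in the submitters' processing notes are MACS2 2.2.4, Picard 2.20.7, Bowtie2 2.3.4.3 and cutadapt 2.5, with the build mm10 and no roles. The calling threshold, any Tn5 shift or duplicate filter, and whether replicates were pooled are not stated there. The authors deposited peak lists of 3 columns (chromosome, start, end) with no height or other value, and 2 were analysed. Repeated lines were counted once, which left 21004 intervals of 29656 knockout lines and 15376 of 24167 control lines. Positions are 1-based, and intervals count as overlapping from 1 bp.

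Genes and start windows came from RefSeq tables of GRCm38.p6, the assembly behind mm10. Start windows were found for 9 of the 10 genes, all except Piwil2. The genes, gene lists and motifs were chosen with earlier results of these data known. The rule for names takes all 10 genes, the other pathway genes found in 1 list alone or in neither, and neighbours closer to an interval than the gene itself. Further names are examples chosen after their values were seen. Overlap and window steps were tested on simulated intervals and against bedtools 2.31.1. Python 3.11.15, pandas 2.3.3, numpy 2.4.6 and matplotlib 3.10.9 were used. With 1 list per genotype no test was made.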

Additional observations from a re-analysis of the deposited data

How the results depend on the processing

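No paired analysis was possible because 1 peak list per genotype was analysed. The counts at the 10 genes were repeated under 8 other settings: windows of 1 and 3 kb, intervals listed at least 2 times, intervals of at least 300 bp, the 15376 widest of each list, merging within 200 bp, an overlap of 50% of both intervals and a gap of up to 500 bp. Of 44 values, 37 stayed within 1.5 times the reported count, or for width ratios within their SD over sites (0.32 in log2). Some of the 37 could not move. The 50% overlap and 500 bp gap rules do not enter the number of genes with intervals of 1 list alone. Start intervals all reach into their genes, so 1 and 3 kb windows leave the start-site count at 8. The gap rule also could not change the counts of genes with overlapping sites or start sites. The SD of 0.32 exceeds the reported median of 0.28, so equal widths would also have stayed within it. With 1 kb windows there were 15 knockout intervals in place of 23, and 1 gene, Fkbp6, had intervals of the control list alone in place of 0. That number was also 1 with intervals of at least 300 bp and with the 15376 widest of each list. With intervals listed at least 2 times there were 9 knockout and 8 control intervals in place of 23 and 15, and overlapping start sites numbered 5 in place of 8. Genes with an overlapping site ranged from 7 to 10 over all settings, and the median log2 width ratio over all overlapping sites of the 10 genes from 0.26 to 0.41, against 0.28 as reported. The settings for start sites and width ratios were chosen after seeing the data. Read depth, which the lists do not give, limits every count here.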

Other observations

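Some neighbours of the piRNA genes differed between the lists at their own starts. Apart from that of Slc38a9, these start intervals lie outside the 10 kb windows of the piRNA genes. Mprip, next to Pld6, had a start interval of 866 bp in knockout cells and 371 bp in control cells. Slc38a9, next to Ddx4, had overlapping start intervals of 790 bp in knockout cells and 496 bp in control cells, a log2 width ratio of 0.67. The quartiles of that ratio over sites at coding starts were -0.27 and 0.37. Flcn (267 bp) and Fam102b (502 bp), beside Pld6 and Henmt1, had a start interval in the knockout list alone, a state found at 8.67% of coding genes with a start window. Rimbp2, the neighbour of Piwil1, had 7 knockout and 0 control intervals in its own 10 kb window, none of them at its start. It is a long gene, 196.0 kb against a median of 17.2 kb, and 13.9% of all protein-coding genes had knockout intervals alone in that window.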
